A study of Mus musculus with 12 samples.

Results

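The genes described here are those that build nucleotides and supply the serine and one-carbon units that nucleotide synthesis uses. Members were the genes on a list of 35 symbols to which the platform annotation assigns at least 1 probe set, a group of short probes for one transcript, under that symbol alone. Of the 35 listed genes 34 were measured, through 80 of the 34945 probe sets with a single symbol and among 18193 genes in all; Impdh2 was not analysed here. By role, 3 members make or salvage with phosphoribosyl pyrophosphate (PRPP), 8 belong to purine synthesis, 5 to pyrimidine synthesis, 7 to deoxynucleotide supply, 7 to folate metabolism and 3 to serine synthesis, and 1 transports nucleosides.

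Dividing cells need new purines, pyrimidines and deoxynucleotides before they can copy DNA. Purine rings are built step by step on PRPP and pyrimidine rings are built first and joined to it later, while folate carries the one-carbon units that both purines and thymidylate need. Serine is the main donor of those units, and in many tumours its synthesis and the mitochondrial folate enzymes are raised together with cell growth.

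Expression was measured on 12 Affymetrix mouse expression arrays of C4-HD, a mouse mammary carcinoma carried in BALB/c mice under medroxyprogesterone acetate (MPA), a progestin. The 6 groups hold 2 arrays each. They are tumours with MPA, saline-treated tumours taken after 48 h whose source name is no MPA, and tumours treated with mifepristone (MFP), an antagonist of the progesterone receptor, for 6 h, for 12 h, for 24 h or for 48 h. Mice had their MPA pellet taken out once tumours covered 50 mm2 and then received MFP at 10 mg/kg/day, so that MFP against MPA compares loss of the progestin and addition of the antagonist at once. The 4 comparisons of MFP with MPA, and that of no MPA with MPA, share its 2 arrays. The labels conflict in places. The treatment protocol counts saline-treated tumours with MPA as controls although those arrays carry the source name no MPA, and the series text omits the 6 h group. The series text calls the arrays independent replicates but no label ties them to separate animals. The p-values below therefore rest only on the spread between arrays, which may be technical.

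RNA came from formalin-fixed, paraffin-embedded tumours, and 200 ng entered each labelling. Values are on the log2 scale relative to the MPA average, so differences between arrays are kept and levels are not: no level could be compared between genes, and the tumour's identity could not be checked from marker levels. Array medians over all probe sets lay between -0.11 and 0.01. The arrays differed in genes of other cell types. The median of 10 genes of the exocrine pancreas reached 6.16 and 4.53 after 6 h, 0.30 and 1.08 after 12 h, 1.01 and 6.88 after 24 h and 4.84 and 5.66 after 48 h, against 0.54 and -0.87 in MPA. That of 10 hepatocyte genes was 3.85 and 4.22 after 24 h and between -2.95 and 1.09 on the other arrays, where the MPA arrays themselves differed (0.90 and -2.95). That of 8 skeletal muscle genes was 4.72 on MFP 48 h replicate 1 and at most 1.32 on the others. Against MPA, 4 of 7 macrophage genes were called higher in limma (adjusted p under 0.05) after 24 h and all 7 after 48 h. Of 7 fibroblast genes 1 was called higher after 24 h and 6 after 48 h. Of 11 luminal epithelial genes 2 were called higher after 12 h and 2 each way after 24 h. After 48 h 4 luminal genes were called lower and 1 higher. Over all genes 1.66%, 4.55% and 6.47% were called higher after 12 h, 24 h and 48 h, and 2.62%, 4.20% and 6.02% lower. The difference between 3' and 5' probe sets of Actb is a common sign of RNA quality. Here both probe sets are ratios to the MPA average. Only a change from MPA can therefore be read, not the quality of the MPA RNA itself. The difference was -0.01 ± 0.09 (SD, n = 2) in MPA and 0.02 ± 0.16 in no MPA. It was 0.16 ± 0.05 after 6 h, 0.35 ± 0.02 after 12 h, 0.43 ± 0.11 after 24 h and 0.53 ± 0.09 after 48 h of MFP, higher at each later time. The part of these differences in the results below was not tested, and in bulk tumour RNA fewer cells of a type and less RNA per cell cannot be told apart.

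To show the upstream DNA of members whose expression differed, promoters were read from RefSeq (build GRCm38.p6), which held 31 of the 34 measured members (all but Aldh1l2, Dhodh and Pfas). Each printed sequence is the 250 bases before the start site, 5′ to 3′ on the gene's strand, with the CCAAT box or the E-box CACGTG in capitals. The genes are the 4 with the smallest p after 24 h of MFP among members with a searched motif: Rrm2 (chr12:24708004-24708253, plus strand), Rrm1 (chr7:102441445-102441694, plus strand), Nme1 (chr11:93968273-93968522, minus strand, 1 of 2 promoters listed) and Gart (chr16:91646973-91647222, minus strand).
Rrm2: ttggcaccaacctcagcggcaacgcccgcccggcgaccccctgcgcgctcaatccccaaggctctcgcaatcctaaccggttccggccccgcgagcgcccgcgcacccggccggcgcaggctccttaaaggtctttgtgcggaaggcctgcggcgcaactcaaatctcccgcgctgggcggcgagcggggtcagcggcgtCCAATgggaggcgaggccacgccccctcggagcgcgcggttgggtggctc
Rrm1: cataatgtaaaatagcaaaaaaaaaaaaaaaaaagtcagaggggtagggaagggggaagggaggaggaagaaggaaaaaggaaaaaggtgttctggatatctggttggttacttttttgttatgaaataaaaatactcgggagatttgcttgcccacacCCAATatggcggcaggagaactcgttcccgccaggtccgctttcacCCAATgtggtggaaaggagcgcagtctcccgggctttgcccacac
Nme1: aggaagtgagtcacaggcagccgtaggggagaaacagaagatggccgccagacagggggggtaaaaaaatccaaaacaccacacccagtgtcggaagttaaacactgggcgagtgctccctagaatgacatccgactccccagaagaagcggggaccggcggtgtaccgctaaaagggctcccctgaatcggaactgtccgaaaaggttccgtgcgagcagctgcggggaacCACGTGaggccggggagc
Gart: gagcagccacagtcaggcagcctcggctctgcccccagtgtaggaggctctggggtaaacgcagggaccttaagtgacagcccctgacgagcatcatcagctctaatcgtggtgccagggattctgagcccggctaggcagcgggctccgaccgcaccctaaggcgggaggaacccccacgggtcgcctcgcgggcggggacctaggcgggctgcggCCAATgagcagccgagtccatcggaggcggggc

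The Ppat and Paics genes, which encode steps of the same purine pathway, lie head to head on chromosome 5 and overlap at their 5′ ends. Ppat spans chr5:76913249-76951578 on the minus strand and Paics chr5:76951302-76967509 on the plus strand, with start sites 276 bases apart. Windows of 30 bases around their motifs are shown because these neighbours had different values in their most variable probe sets, given below. Their other probe sets did not repeat this. On the 12 h arrays those of Ppat were at -0.18 and 0.03 and at -0.53 and -0.49. Those of Paics were at -0.38 and -0.27 and at -0.62 and -0.63. The Ppat windows lie within the Paics gene, and the Paics window lies within the Ppat gene. Capitals mark the reverse complement of the E2F motif TTTCCCGC in the Ppat windows (chr5:76951771-76951800 and chr5:76951718-76951747, minus strand) and the E-box in the Paics window (chr5:76951087-76951116, plus strand).
Ppat, first window: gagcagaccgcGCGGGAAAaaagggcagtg
Ppat, second window: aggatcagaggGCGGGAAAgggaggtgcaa
Paics: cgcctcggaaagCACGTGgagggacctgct

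Motifs were searched on both strands in windows from 250 bases before to 50 bases after each start site. The E-box CACGTG, which MYC and related factors can bind, was found for 6 of 31 members (19.4%; Atic, Dtymk, Nme1, Paics, Slc29a1 and Tyms) and for 8.09% of all genes with a promoter entry. CCAAT was found for 15 members (48.4%) and 41.1% of genes. One of the E2F motifs TTTGGCGC, TTTCCCGC or TTTCGCGC was found for Ppat and Prps2 (2 members, 6.45%) and 2.12% of genes, and TGATGNAA, a motif of the ATF4 type, for Prps1 (1 member, 3.23%) and 4.51% of genes. No searched motif contains another. A match describes letters in a window and is no evidence of binding.

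Along the MFP course many members were lower than with MPA and none was called higher, where called means an adjusted p under 0.05 in limma over all 18193 genes. Of the 34 members 3 fell after 6 h (Gart, Ctps and Nme1), with 0.940% of all genes called lower there. After 12 h 14 fell (2.62% of all genes called lower), after 24 h 10 fell (4.20%) and after 48 h 8 fell (6.02%). The shares of all genes called higher were 0.313%, 1.66%, 4.55% and 6.47% at these times. The median member difference was -0.73 after 6 h, -1.02 after 12 h, -0.81 after 24 h and -0.68 after 48 h, beside 0.02, 0.02, -0.03 and 0.00 over all genes. Both MFP arrays lay below both MPA arrays for 24 members after 6 h, 29 after 12 h, 28 after 24 h and 22 after 48 h, as they did for 22.0%, 23.3%, 27.3% and 27.3% of all genes. The opposite order held for 3, 1, 1 and 4 members and for 23.1%, 24.5%, 22.2% and 26.1% of all genes.

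**Figure D1:**
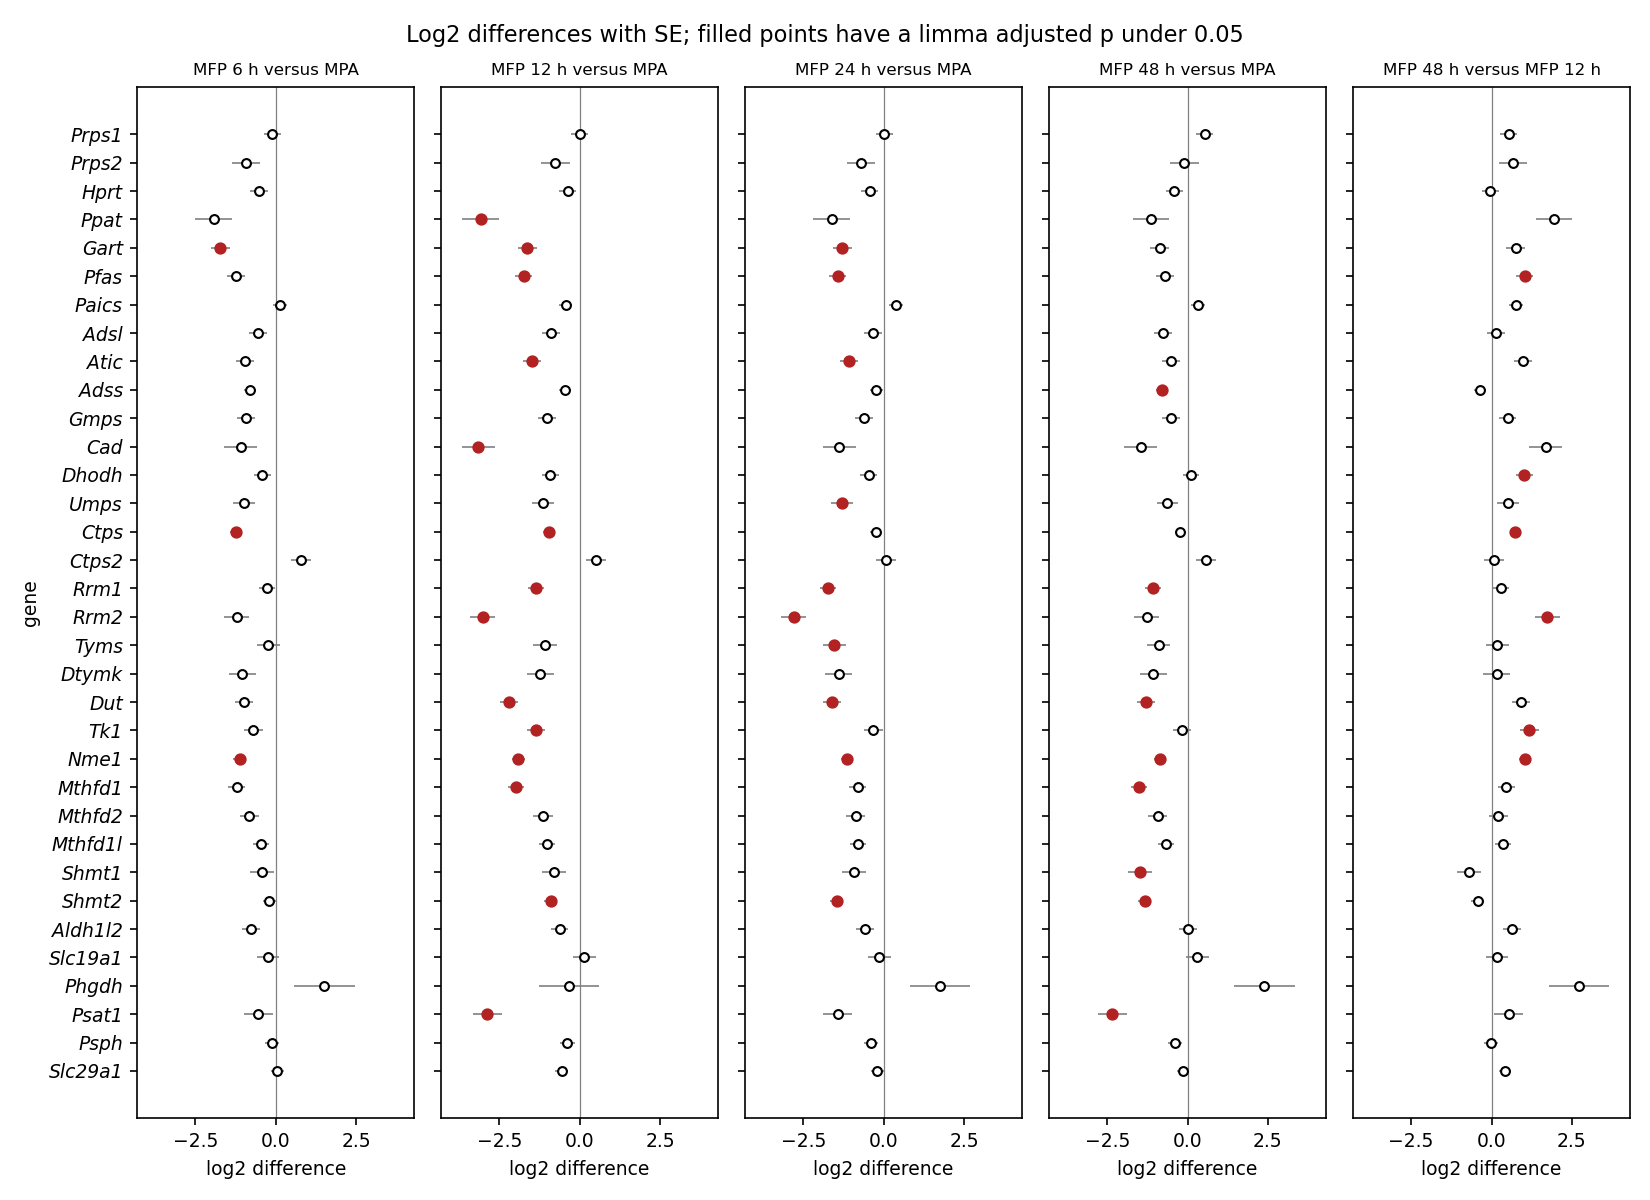
Log2 difference (x axis) of each measured member (points, with standard errors) at the 4 MFP times and, in the last panel, of MFP 48 h from MFP 12 h; filled points were called by limma. Against MPA every called member lies below 0 and 12 h holds the most of them (14 of 34), while the 6 called in the last panel lie above 0.

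The 18 members called lower at 1 or more times differed in how long they were called. Nme1 alone was called at all 4 times, Dut, Gart, Rrm1 and Shmt2 at 3 times, Atic, Ctps, Mthfd1, Pfas, Psat1 and Rrm2 at 2 times, and Adss, Cad, Ppat, Shmt1, Tk1, Tyms and Umps at 1 time. The other 16 members were called at none. The lowest of the 4 MFP means was that of 12 h for 18 of the 34 members, of 6 h for 7, of 24 h for 6 and of 48 h for 3. Over all genes these shares were 19.8%, 24.2%, 27.6% and 28.4%.

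These counts depended on the processing and on single arrays. With quantile normalization 1, 3, 0 and 0 members were called lower at the 4 times, and with the 2 groups fitted alone none was called at any of them. After 6 h no member was called without MPA replicate 1 or 2 or without MFP 6 h replicate 1 or 2, and 5 were called without MFP 24 h replicate 1 or 2. After 12 h 8 were called with either MPA array left out and 5 with either MFP 12 h array left out. After 24 h 6 were called lower and 1 higher without MFP 24 h replicate 1. After 48 h 2 were called lower without MPA replicate 1 and 4 with either MFP 48 h array left out, and 1 was called higher with either MFP 24 h array left out. Where each array was left out in turn, the named calls that held every time were those of Nme1, Dut and Rrm2 after 12 h, of Rrm2, Rrm1, Nme1, Pfas and Shmt2 after 24 h, and of Shmt2 and Mthfd1 after 48 h. The calls of Atic, Rrm1 and Tk1 after 12 h and of Dut after 24 h were not followed in this way.

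**Figure D2:**
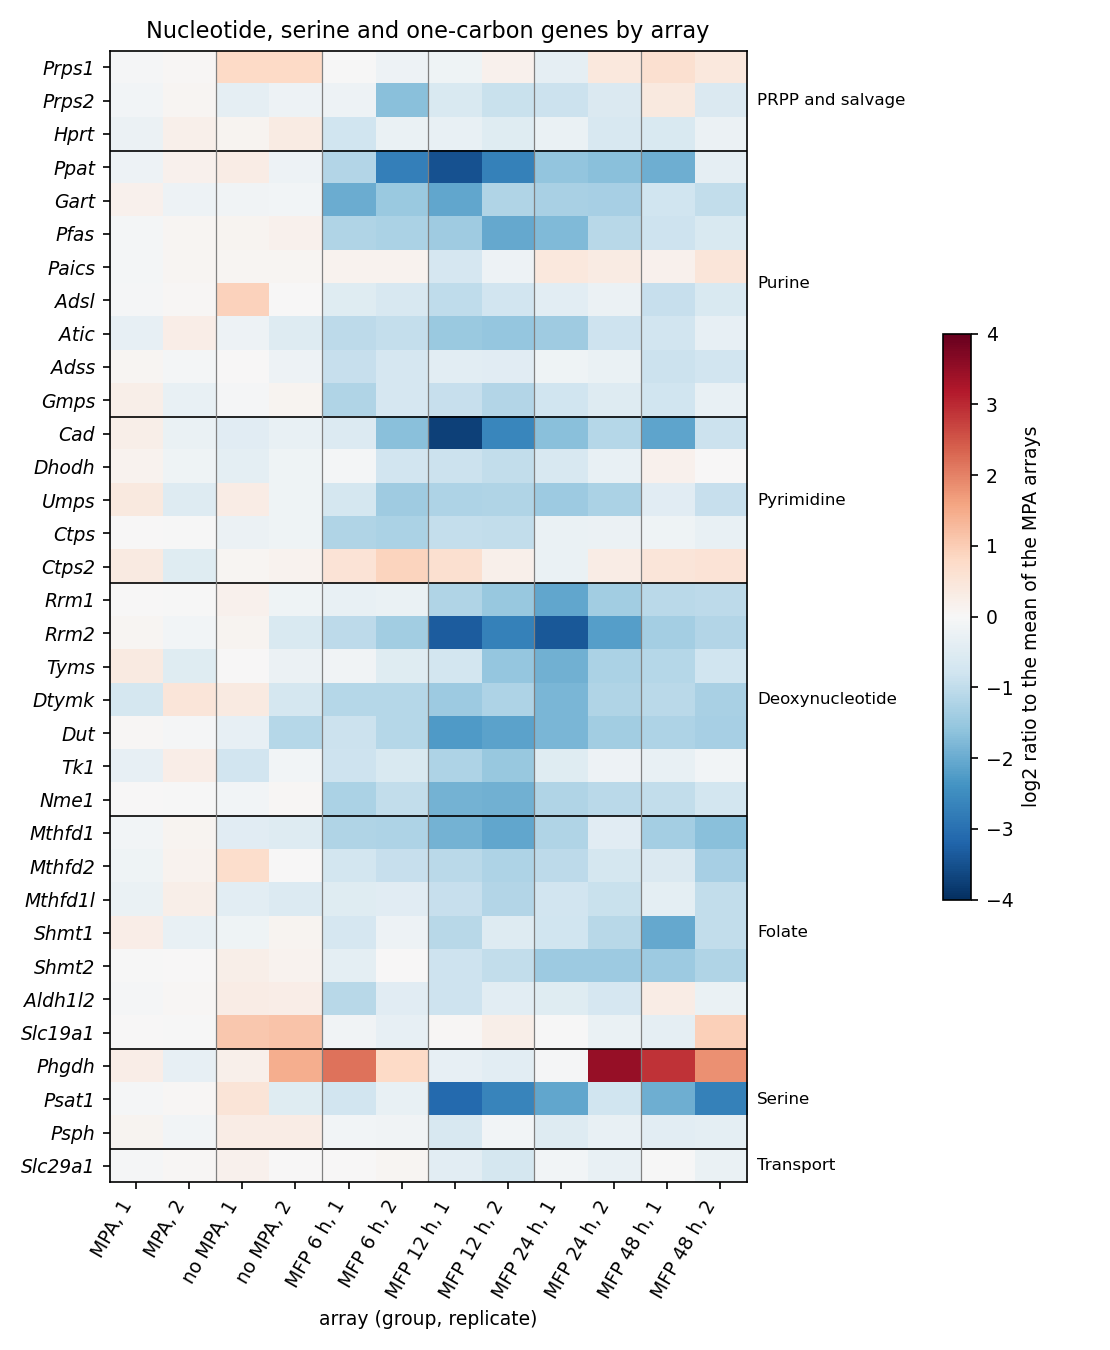
Expression relative to the MPA average on the log2 scale (colour, from -4 to 4) for each of the 34 measured members (vertical axis, by branch) on each of the 12 arrays (horizontal axis, by group). Most members of the purine, deoxynucleotide and folate branches are below 0 on both MFP 12 h arrays, where Cad reached -3.74, while Phgdh is above 0 on several MFP arrays.

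Genes of deoxynucleotide supply had a median difference of -0.99 after 6 h, -1.36 after 12 h, -1.53 after 24 h and -1.07 after 48 h. Of 7 measured genes 1, 5, 5 and 3 fell at these times, where 0.940%, 2.62%, 4.20% and 6.02% of all genes were called lower. Ribonucleotide reductase turns ribonucleotides into deoxynucleotides, and Rrm2 encodes its small subunit. Rrm2 stood at 0.09 and -0.10 in MPA, 0.12 and -0.60 in no MPA, -1.06 and -1.38 after 6 h, -3.32 and -2.70 after 12 h, -3.39 and -2.20 after 24 h and -1.36 and -1.18 after 48 h. Every MFP array was thus below every array without MFP, and the 12 h and 24 h arrays were the lowest. Rrm2 fell by 3.01 ± 0.39 after 12 h (SE in limma, n = 2 arrays a group, as for each ± after a log2 difference here; adjusted p = 0.00698) and was at -2.79 ± 0.39 after 24 h (called, adjusted p = 0.00277). Its difference was -1.22 ± 0.39 after 6 h (adjusted p = 0.171) and -1.27 ± 0.39 after 48 h (adjusted p = 0.0591), without a call. The other 2 probe sets of Rrm2 were also called lower after 12 h and 24 h.

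The large subunit gene Rrm1 was at 0.03 and -0.03 in MPA, 0.18 and -0.17 in no MPA, -0.29 and -0.26 after 6 h, -1.20 and -1.52 after 12 h, -2.09 and -1.39 after 24 h and -1.07 and -1.06 after 48 h. Its 6 h arrays lay just below the arrays without MFP, and all later arrays lay lower still. Rrm1 fell by 1.36 ± 0.25 after 12 h (adjusted p = 0.0186), 1.74 ± 0.25 after 24 h (adjusted p = 0.00350) and 1.07 ± 0.25 after 48 h (adjusted p = 0.0243), and all 3 of its probe sets were called lower at these times.

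Nme1 encodes a nucleoside diphosphate kinase, which adds the last phosphate to nucleotides. It stood at 0.01 and -0.01 in MPA, -0.11 and 0.06 in no MPA, -1.27 and -0.98 after 6 h, -1.89 and -1.91 after 12 h, -1.20 and -1.09 after 24 h and -0.98 and -0.74 after 48 h. The MFP arrays did not overlap those without MFP, and both arrays were lowest after 12 h. Nme1 fell by 1.12 ± 0.19 after 6 h (adjusted p = 0.0283), 1.90 ± 0.19 after 12 h (adjusted p = 0.00576), 1.15 ± 0.19 after 24 h (adjusted p = 0.00664) and 0.86 ± 0.19 after 48 h (adjusted p = 0.0200). Dut, whose product clears dUTP and makes the precursor of thymidylate, was at -0.86 and -1.13 after 6 h, -2.28 and -2.13 after 12 h, -1.83 and -1.40 after 24 h and -1.25 and -1.34 after 48 h, against 0.06 and -0.06 in MPA and -0.33 and -1.15 in no MPA. No MPA replicate 2 of Dut thus overlapped the 6 h arrays. Dut fell by 2.20 ± 0.28 after 12 h (adjusted p = 0.00672), 1.62 ± 0.28 after 24 h and 1.29 ± 0.28 after 48 h, while its second probe set, at -1.05 ± 0.30 after 12 h, was not called at any MFP time.

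The thymidylate genes Tyms and Tk1 were each called at 1 time. Tyms, which encodes thymidylate synthase, was at 0.36 and -0.49 in MPA, 0.00 and -0.25 in no MPA, -0.13 and -0.47 after 6 h, -0.74 and -1.54 after 12 h, -1.91 and -1.28 after 24 h and -1.13 and -0.80 after 48 h. The arrays from 12 h on lay below all others, and the MPA arrays differed from each other by more than the 6 h mean did from the MPA mean. It fell after 24 h (-1.53 ± 0.36, adjusted p = 0.0272) and was not called after 6 h (-0.24 ± 0.36), 12 h (-1.08 ± 0.36) or 48 h (-0.90 ± 0.36); the other 3 Tyms probe sets were called at no time. Tk1, the salvage kinase for thymidine, was at -0.34 and 0.27 in MPA and -0.77 and -0.12 in no MPA. With MFP it was at -0.84 and -0.60 after 6 h, -1.23 and -1.53 after 12 h, -0.48 and -0.21 after 24 h and -0.30 and -0.10 after 48 h. Only after 12 h were both Tk1 arrays below every array without MFP. Its change was called after 12 h (-1.35 ± 0.28, adjusted p = 0.0286), and its 48 h arrays lay within the range of MPA. Dtymk, the thymidylate kinase gene, had differences of -1.03 to -1.40 at the 4 times without a call in its most variable probe set, while each of the other 2 was called lower once (-0.83 ± 0.21 after 24 h and -1.14 ± 0.26 after 48 h).

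**Figure D3:**
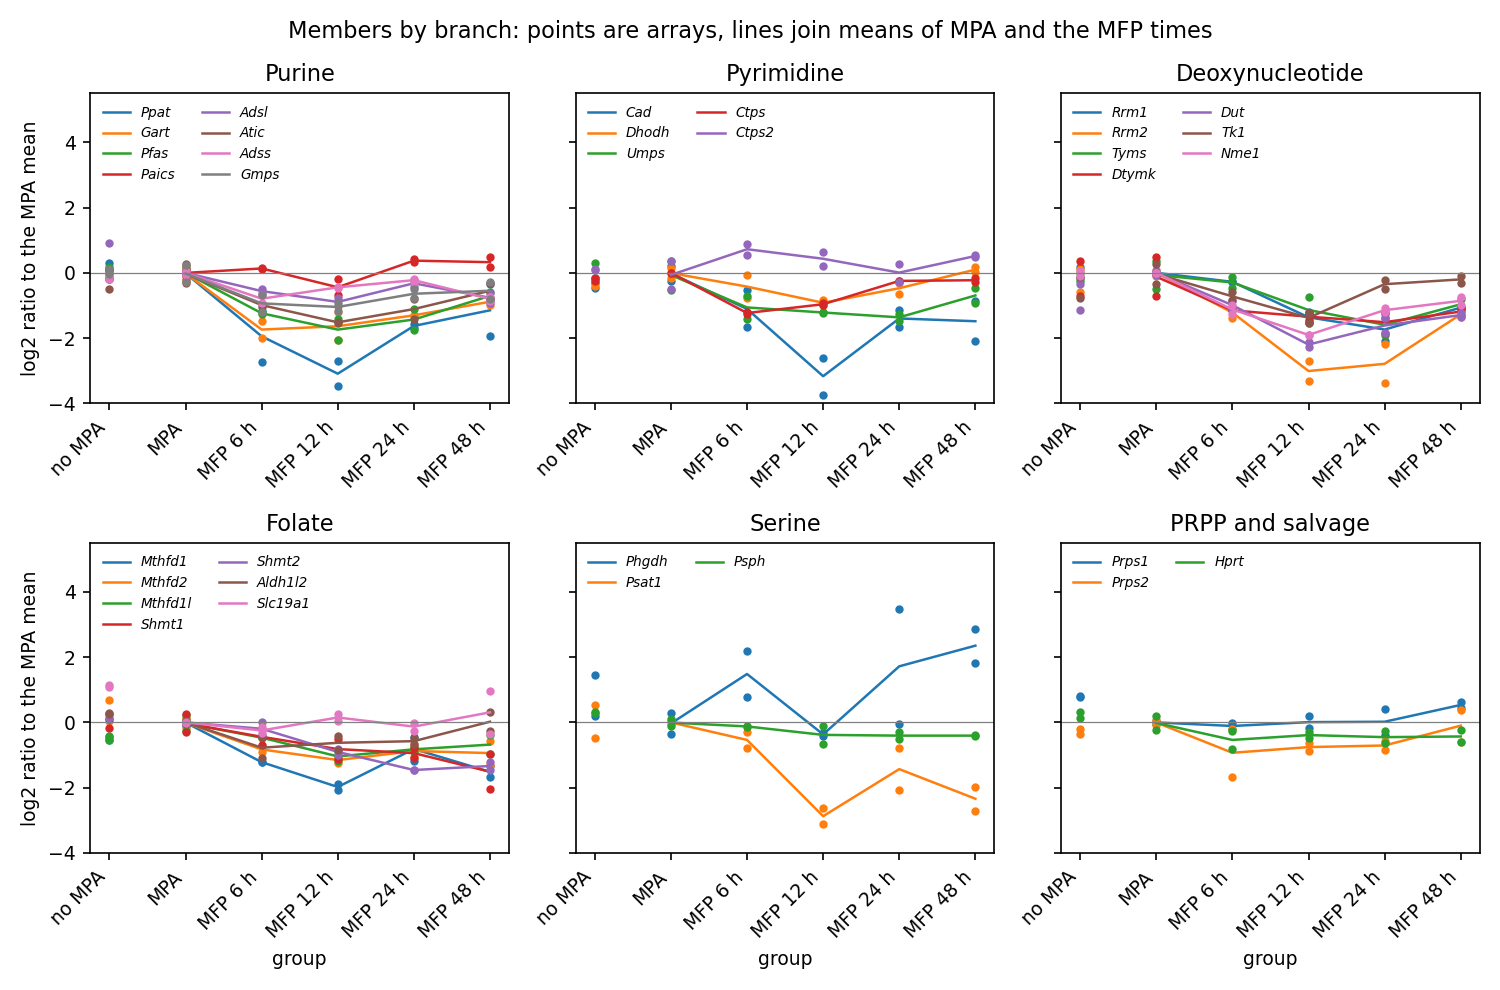
Expression relative to the MPA average on the log2 scale (y axis) of the members of each branch with more than 1 member, by group (x axis); points are arrays and lines join the means of MPA and the MFP times, while no MPA stands apart on the left. Deoxynucleotide genes such as Rrm2 are lowest after 12 h and 24 h, and the purine genes Ppat and Pfas are lowest after 12 h.

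In the purine branch, 1 of 8 measured genes fell after 6 h, 4 after 12 h, 3 after 24 h and 1 after 48 h, with medians of -0.94, -1.26, -0.85 and -0.74. Over all genes 0.940%, 2.62%, 4.20% and 6.02% were called lower at these times, so a single call among 8 genes says little. Ppat encodes the amidotransferase that commits PRPP to purine synthesis. Its most variable probe set was at -0.21 and 0.18 in MPA, 0.31 and -0.20 in no MPA, -1.16 and -2.73 after 6 h, -3.47 and -2.71 after 12 h, -1.58 and -1.68 after 24 h and -1.95 and -0.35 after 48 h. All MFP arrays lay below those without MFP, but the arrays after 6 h and after 48 h differed widely from each other. Ppat fell by 3.08 ± 0.57 after 12 h (adjusted p = 0.0178) and was not called after 6 h (-1.93 ± 0.57), 24 h (-1.62 ± 0.57) or 48 h (-1.14 ± 0.57). Its other probe sets stood at -0.51 ± 0.26 and -0.08 ± 0.23 after 12 h and were called at no time. Leaving out any single MPA or MFP 12 h array ended the 12 h call (adjusted p up to 0.121).

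Gart, whose trifunctional product catalyses 3 of the next steps, was at 0.18 and -0.21 in MPA, -0.15 and -0.11 in no MPA, -1.99 and -1.49 after 6 h, -2.07 and -1.21 after 12 h, -1.29 and -1.32 after 24 h and -0.80 and -0.98 after 48 h. All MFP arrays were below all others. Gart fell by 1.73 ± 0.29 after 6 h (adjusted p = 0.0283), 1.62 ± 0.29 after 12 h (adjusted p = 0.0173) and 1.29 ± 0.29 after 24 h (adjusted p = 0.0248), and stood at -0.87 ± 0.29 after 48 h (adjusted p = 0.0820). Another of its 4 probe sets was called lower after 6 h and 12 h, and the remaining 2 were called at no time.

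Pfas, whose product acts between steps of the Gart enzyme, was at -0.08 and 0.07 in MPA, 0.11 and 0.17 in no MPA, -1.21 and -1.27 after 6 h, -1.43 and -2.05 after 12 h, -1.76 and -1.11 after 24 h and -0.82 and -0.59 after 48 h. Its MFP arrays did not overlap the others, and it fell after 12 h (-1.74 ± 0.27, adjusted p = 0.00950) and 24 h (-1.43 ± 0.27, adjusted p = 0.0107). Atic, which encodes the last enzymes of IMP synthesis, fell by 1.49 ± 0.28 after 12 h (adjusted p = 0.0189) and 1.08 ± 0.28 after 24 h (adjusted p = 0.0391). A second Atic probe set was called lower after 6 h (-1.20 ± 0.18) and 12 h (-0.91 ± 0.18). The 24 h call of Atic was lost when any 1 of 8 of the 12 arrays was left out (adjusted p up to 0.181). Adss, the gene of adenylosuccinate synthase on the way to AMP, fell after 48 h (-0.80 ± 0.19, adjusted p = 0.0233) and was at -0.79 ± 0.19 after 6 h without a call (adjusted p = 0.0783).

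Paics, the neighbour of Ppat, encodes a later step and was not called. Its most variable probe set was at -0.09 and 0.09 in MPA, 0.09 and 0.08 in no MPA, 0.14 and 0.13 after 6 h, -0.69 and -0.20 after 12 h, 0.41 and 0.34 after 24 h and 0.18 and 0.47 after 48 h. In this probe set the 12 h arrays alone among the MFP arrays lay below both MPA arrays. In another of its 3 probe sets all 8 MFP arrays, at -0.63 to -0.20, and both no MPA arrays, at -0.24 and -0.53, lay below the MPA arrays at 0.03 and -0.03. None of the 3 was called at any time (12 h difference of the most variable one -0.44 ± 0.22, adjusted p = 0.323). The difference between Ppat and Paics was not itself tested. Gmps, on the way to GMP, and Adsl, used in both IMP and AMP synthesis, lay between -0.32 and -1.02 at the MFP times and were not called against MPA.

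Among the 5 pyrimidine genes 1 fell after 6 h, 2 after 12 h, 1 after 24 h and none after 48 h in limma. After 48 h 1 of 5 had an unadjusted p under 0.05 in limma. The shares of all genes called lower were 0.940%, 2.62%, 4.20% and 6.02% at the 4 times. Cad encodes the enzyme of the first steps of pyrimidine synthesis. It was at 0.22 and -0.26 in MPA, -0.46 and -0.31 in no MPA, -0.54 and -1.68 after 6 h, -3.74 and -2.61 after 12 h, -1.66 and -1.14 after 24 h and -2.10 and -0.87 after 48 h. The 12 h arrays stood clear of all others. Cad fell by 3.15 ± 0.51 after 12 h (adjusted p = 0.0111), and was at -1.09 ± 0.51 after 6 h, -1.38 ± 0.51 after 24 h and -1.46 ± 0.51 after 48 h without a call. All 3 Cad probe sets were called lower after 12 h, the other 2 by smaller amounts (-1.45 ± 0.20 and -1.29 ± 0.29), and the first of these was also called after 24 h and 48 h. Without MPA replicate 1 or MFP 12 h replicate 1 the 12 h call of the most variable probe set was lost (adjusted p up to 0.0823).

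Ctps, which encodes the synthase that makes CTP from UTP, was lowest at the start of the course. It stood at 0.01 and -0.01 in MPA, -0.24 and -0.16 in no MPA, -1.19 and -1.28 after 6 h, -0.94 and -0.99 after 12 h, -0.25 and -0.24 after 24 h and -0.16 and -0.30 after 48 h. Its 24 h and 48 h arrays lay near or among the no MPA arrays. Ctps fell by 1.23 ± 0.17 after 6 h (adjusted p = 0.0165) and 0.96 ± 0.17 after 12 h (adjusted p = 0.0173). Ctps2, its paralog, was above 0 on average at each MFP time (0.79 ± 0.31 after 6 h, adjusted p = 0.261) and was never called. Umps, for the last steps to UMP, fell after 24 h (-1.30 ± 0.34, adjusted p = 0.0406), a call lost when any 1 of 7 arrays was left out (adjusted p up to 0.235). Dhodh, the mitochondrial step between Cad and Umps, was at -0.91 ± 0.26 after 12 h (adjusted p = 0.0832) and was not called against MPA.

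In the folate branch 0, 2, 1 and 3 of 7 genes fell after 6 h, 12 h, 24 h and 48 h in limma, with medians of -0.45, -0.90, -0.81 and -0.93. After 6 h 3 of 7 had an unadjusted p under 0.05 in limma. Of all genes 0.940%, 2.62%, 4.20% and 6.02% were called lower at these times. Shmt2 encodes the mitochondrial enzyme that takes one-carbon units from serine. It was at 0.00 and 0.00 in MPA, 0.24 and 0.14 in no MPA, -0.39 and 0.00 after 6 h, -0.82 and -0.99 after 12 h, -1.45 and -1.47 after 24 h and -1.46 and -1.21 after 48 h. The 6 h arrays overlapped MPA, and those after 24 h and 48 h were the lowest. Shmt2 fell by 0.90 ± 0.20 after 12 h (adjusted p = 0.0369), 1.46 ± 0.20 after 24 h (adjusted p = 0.00280) and 1.34 ± 0.20 after 48 h (adjusted p = 0.00522). The 12 h call was lost when any 1 of 6 of the 12 arrays was left out (adjusted p up to 0.209), and those after 24 h and 48 h were lost with none. All 4 of its probe sets were called lower after 48 h.

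The cytosolic Mthfd1, a trifunctional folate enzyme gene, was at -0.10 and 0.10 in MPA, -0.46 and -0.53 in no MPA, -1.21 and -1.23 after 6 h, -1.88 and -2.08 after 12 h, -1.19 and -0.44 after 24 h and -1.35 and -1.68 after 48 h. MFP 24 h replicate 2 lay just above both no MPA arrays, and the other MFP arrays lay below them. Mthfd1 fell by 1.98 ± 0.26 after 12 h (adjusted p = 0.00710) and 1.51 ± 0.26 after 48 h (adjusted p = 0.00710). A second Mthfd1 probe set was called lower at all 4 times (-2.01 ± 0.21 after 12 h), while the third was not called. Shmt1, the cytosolic counterpart of Shmt2, fell after 48 h (-1.49 ± 0.37, adjusted p = 0.0288), with arrays at -2.04 and -0.98. Mthfd2, the mitochondrial dehydrogenase gene often raised in tumours, was at -0.82 ± 0.30, -1.15 ± 0.30, -0.87 ± 0.30 and -0.93 ± 0.30 at the 4 times and was not called against MPA (adjusted p = 0.0668 after 12 h). Mthfd1l, its partner in formate production, had differences of -0.45 to -1.02 and no call. Aldh1l2, a mitochondrial oxidiser of formyl folate, and Slc19a1, the reduced folate carrier, ranged from -0.77 to 0.31 and were not called.

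Serine synthesis starts with Phgdh, goes on with Psat1, which transfers the amino group, and ends with Psph. Psat1 was at -0.04 and 0.04 in MPA, 0.52 and -0.48 in no MPA, -0.77 and -0.31 after 6 h, -3.12 and -2.63 after 12 h, -2.07 and -0.80 after 24 h and -1.97 and -2.71 after 48 h. One 6 h array overlapped the no MPA arrays, and all later arrays were below them. Psat1 fell by 2.88 ± 0.45 after 12 h (adjusted p = 0.0103) and 2.34 ± 0.45 after 48 h (adjusted p = 0.0115), and was at -1.43 ± 0.45 after 24 h (adjusted p = 0.0821). Its second probe set was called lower after 12 h, 24 h and 48 h (-1.97 ± 0.24, -2.00 ± 0.24 and -1.07 ± 0.24). Psph lay between -0.12 and -0.40 without a call.

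The probe sets of Phgdh disagreed. The most variable one, which stood for the gene, was at 0.28 and -0.34 in MPA, 0.20 and 1.47 in no MPA, 2.19 and 0.78 after 6 h, -0.32 and -0.41 after 12 h, -0.04 and 3.48 after 24 h and 2.88 and 1.83 after 48 h, and was not called (48 h difference 2.39 ± 0.94, adjusted p = 0.131). Its highest arrays, MFP 24 h replicate 2, both MFP 48 h arrays and MFP 6 h replicate 1, were the 4 arrays where the exocrine pancreas median was 4.84 or more. The order did not match throughout. MFP 6 h replicate 2, at 0.78, had a pancreas median of 4.53, and no MPA replicate 2, at 1.47, had one of -0.83. The part of the pancreas genes in this value was not tested. A second probe set stood at 0.06 and -0.06 in MPA, -0.22 and -0.33 in no MPA, -0.98 and -0.99 after 6 h, -2.09 and -1.91 after 12 h, -1.97 and -2.11 after 24 h and -2.16 and -1.70 after 48 h. In a fit over the 34945 probe sets it was called lower after 6 h (-0.98 ± 0.19, adjusted p = 0.0457), 12 h (-2.00 ± 0.19, adjusted p = 0.00320), 24 h (-2.04 ± 0.19) and 48 h (-1.93 ± 0.19). Another one was called lower at the same times (-1.23 ± 0.19, -2.06 ± 0.19, -2.09 ± 0.19 and -1.76 ± 0.19), and the fourth lay between -0.14 and 0.04 and was not called. No single direction can therefore be given for Phgdh from these arrays.

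**Figure D4:**
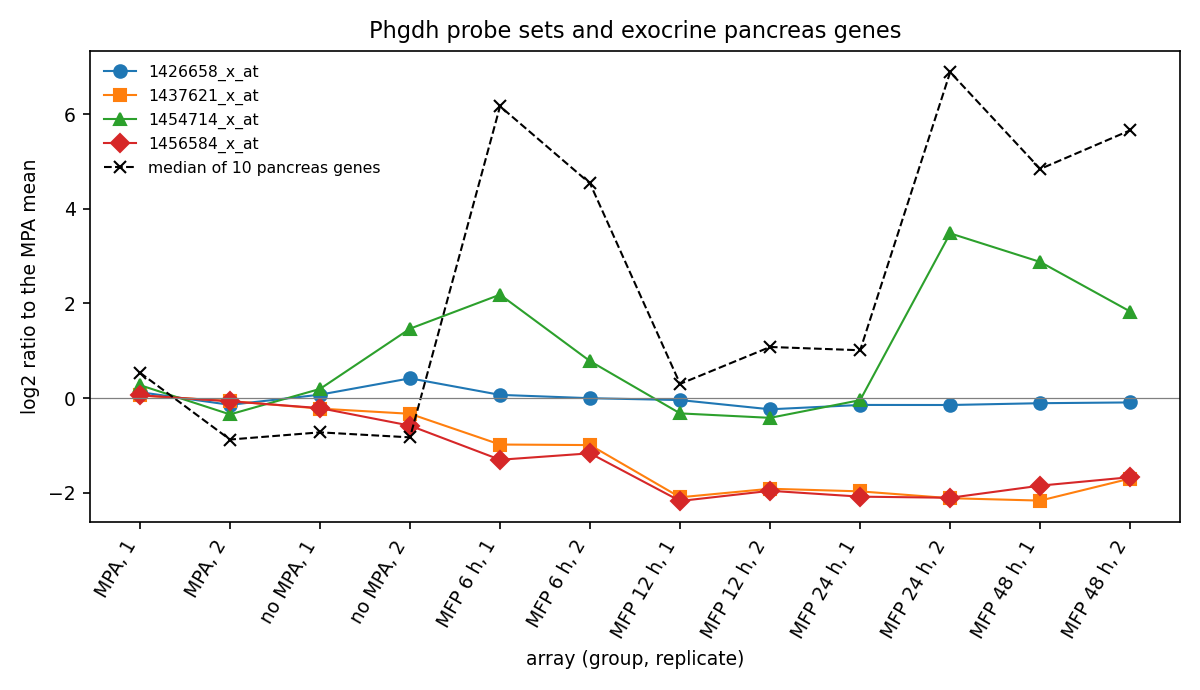
Expression relative to the MPA average on the log2 scale (y axis) for each of the 4 probe sets that the annotation assigns to Phgdh alone (coloured) and the median of 10 exocrine pancreas genes (dashed), on each array (x axis); lines only guide the eye. A pair of probe sets lies between -2.17 and -1.67 from 12 h on, 1 stays near 0, and 1 reaches 3.48.

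Over all 80 member probe sets, 9 were called lower after 6 h, 32 after 12 h, 24 after 24 h and 22 after 48 h, where 0.841%, 2.20%, 3.61% and 5.35% of the 34945 probe sets were. None was called higher, as 0.269%, 1.46%, 3.36% and 5.20% of all probe sets were. Counted by gene, 6, 19, 16 and 12 members had at least 1 probe set called lower. Among the 23 members with several probe sets, all probe sets had a difference below 0 for 20, 21, 20 and 15 at the 4 times. For neither of these counts by gene was the share over all genes computed. A gene with several probe sets also has more chances of a call. The PRPP synthetase genes Prps1 and Prps2, the purine base salvage gene Hprt and the nucleoside transporter Slc29a1 were not called in any comparison. Their differences from MPA at the MFP times lay between -0.93 and 0.54, and of their other probe sets 1 of Prps2 was called lower after 12 h (-0.96 ± 0.18).

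Saline-treated tumours labelled no MPA were compared with MPA to ask how tumours differed without the antagonist. No member was called, nor was any of the 18193 genes (0% called lower and 0% higher in limma); at an unadjusted p under 0.05 there were 3 members and 1198 genes. The members' median was 0.01, as over all genes (0.01). Both no MPA arrays were below both MPA arrays for 7 members (17.3% of all genes) and above them for 6 (18.7%). The 3 members were Slc19a1 (1.12 ± 0.34, adjusted p = 0.627), Prps1 (0.80 ± 0.26, adjusted p = 0.694) and Dut (-0.74 ± 0.28, adjusted p = 0.711). Slc19a1 was at 1.09 and 1.14 in no MPA against 0.01 and -0.01 in MPA, and its other 2 probe sets were near 0. Rrm2 was at -0.24 ± 0.39, Cad at -0.37 ± 0.51 and Mthfd2 at 0.37 ± 0.30, none of them called.

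Compared at the same time, MFP 48 h against no MPA, 9 members fell and none rose (5.03% and 7.49% of all genes), with a member median of -0.73 beside -0.04 over all genes. The comparison uses the same MFP 48 h arrays as the comparison with MPA. Shmt2 fell by 1.53 ± 0.20 (adjusted p = 0.00261), a call that held in each of the 19 alternatives run (adjusted p at most 0.0431). Psat1 fell by 2.36 ± 0.45 (adjusted p = 0.00917) and Shmt1 by 1.47 ± 0.37 (adjusted p = 0.0282), and the folate genes Mthfd2 (-1.30 ± 0.30, adjusted p = 0.0210) and Mthfd1 (-1.02 ± 0.26, adjusted p = 0.0275) also fell. From the purine branch came Adsl (-1.24 ± 0.28, adjusted p = 0.0183) and Adss (-0.71 ± 0.19, adjusted p = 0.0359), and from deoxynucleotide supply Rrm1 (-1.07 ± 0.25, adjusted p = 0.0223) and Nme1 (-0.83 ± 0.19, adjusted p = 0.0208). Rrm2 was at -1.03 ± 0.39 and Cad at -1.10 ± 0.51 without a call. In the same comparison 6 of 11 luminal epithelial genes fell and none rose, while 7 of 7 macrophage genes, 6 of 7 fibroblast genes and 9 of 10 exocrine pancreas genes rose, and their part in the result was not tested. Both MFP 48 h arrays were below both no MPA arrays for 24 members (29.9% of all genes) and above them for 4 (25.2%). The count called lower was 1 or 4 with the first or the second no MPA array left out, and 3 or 5 with the first or the second MFP 48 h array left out. It was 1 after quantile normalization and 4 with the 2 groups fitted alone.

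A pair of comparisons within the MFP course was added after the values had been seen. From 6 h to 12 h no member and no gene was called (0% each way in limma), with 13 members and 1348 genes at an unadjusted p under 0.05. The member median was -0.50 beside 0.00 over all genes, and all 12 h arrays lay below all 6 h arrays for 20 members and above them for 3 (20.5% of all genes each way). The smallest p was that of Psat1 (-2.34 ± 0.45, adjusted p = 0.327), and Cad was at -2.06 ± 0.51 and Rrm2 at -1.79 ± 0.39. From 12 h to 48 h 6 members rose and none fell (4.69% of all genes called higher and 3.35% lower), with a median of 0.53 beside -0.01. The 48 h arrays lay above the 12 h arrays for 21 members (25.8% of all genes) and below them for 2 (27.3%). Those called were Rrm2 (1.74 ± 0.39, adjusted p = 0.0256), Tk1 (1.18 ± 0.28, adjusted p = 0.0325), Nme1 (1.05 ± 0.19, adjusted p = 0.0139), Pfas (1.03 ± 0.27, adjusted p = 0.0428), Dhodh (1.02 ± 0.26, adjusted p = 0.0411) and Ctps (0.74 ± 0.17, adjusted p = 0.0308). No folate or serine gene was among them, but the branches were not compared by a test. Uncalled values ran from -0.69 to 0.65 for the folate genes and from -0.02 to 2.72 for the serine genes. No member was called higher without MFP 12 h replicate 1 or 2 or MFP 48 h replicate 2, after quantile normalization or with the probe set of largest SD around the group means, and 2 were without MFP 48 h replicate 1. Arrays of other groups mattered as well: of the 12 arrays, leaving out any 1 of 10 ended the call of Pfas (adjusted p up to 0.261) and any 1 of 6 that of Dhodh (adjusted p up to 0.193).

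The slope over the 8 MFP arrays per doubling of time was called for 2 members. Ctps rose by 0.37 ± 0.07 per doubling (adjusted p = 0.00810), with 6.80% of all genes called higher, and Shmt2 fell by 0.40 ± 0.09 (adjusted p = 0.0217), with 4.39% called lower. The Shmt2 slope was not called without MFP 6 h replicate 1 or 2 or MFP 48 h replicate 1 (adjusted p up to 0.0892). The median slope of the members was 0.05, and that of all genes was -0.01.

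Genes near the members in the same pathways changed in both directions. Over all genes 0.940%, 2.62%, 4.20% and 6.02% were called lower at the 4 times, and 0.313%, 1.66%, 4.55% and 6.47% higher. A single called gene in a list this small says little about the list. Of 16 other folate and glycine cleavage genes 2 fell after 6 h, 3 after 12 h, and 1 each after 24 h and 48 h, while 2 rose after 24 h and 1 after 48 h. Aldh1l1 was at 2.42 and 2.14 after 24 h, on the arrays where the hepatocyte median was 3.85 and 4.22. The part of hepatocyte RNA in this value was not tested. Mtr, encoding methionine synthase, fell after 12 h (-1.77 ± 0.31, adjusted p = 0.0147), its reductase partner Mtrr after 6 h (-1.58 ± 0.26, adjusted p = 0.0283) and the glycine cleavage gene Gcsh after 6 h (-1.08 ± 0.22, adjusted p = 0.0452). In nucleoside and nucleobase salvage 0, 2, 0 and 1 of 11 fell, including the adenosine kinase gene Adk (-1.74 ± 0.32 after 12 h, adjusted p = 0.0176) and the uridine-cytidine kinase gene Uck2 (-1.18 ± 0.25 after 12 h, adjusted p = 0.0310), and 0, 0, 2 and 1 rose, including the mitochondrial thymidine kinase gene Tk2 (0.80 ± 0.21 after 24 h, adjusted p = 0.0395). Among 16 kinases and interconverting enzymes 0, 2, 2 and 1 fell and 0, 1, 1 and 1 rose. Ak4, a mitochondrial adenylate kinase gene, fell by 2.31 ± 0.52, 2.43 ± 0.52 and 2.91 ± 0.52 after 12 h, 24 h and 48 h, and Cmpk2 rose after 12 h (1.49 ± 0.31) and 24 h (2.18 ± 0.31). Of 7 pentose phosphate genes 1 fell after 12 h and 1 rose after 48 h.

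Among 20 nucleotide breakdown genes 0, 1, 8 and 7 rose at the 4 times and 1 fell at each, with medians of 0.02, -0.23, 0.91 and 0.37. Over all genes 0.313%, 1.66%, 4.55% and 6.47% were called higher at these times, and 0.940%, 2.62%, 4.20% and 6.02% lower. Ampd3, which deaminates AMP, rose by 2.46 ± 0.33 after 12 h (adjusted p = 0.00764), 2.09 ± 0.33 after 24 h and 1.89 ± 0.33 after 48 h. Its paralog Ampd2 fell by 1.85 ± 0.19 after 6 h (adjusted p = 0.00783) and 1.28 ± 0.19 after 12 h. Pnp, purine nucleoside phosphorylase, rose after 24 h (1.47 ± 0.25) and 48 h (1.44 ± 0.25, adjusted p = 0.00720), and Xdh, which forms uric acid, rose after 48 h (2.28 ± 0.45, adjusted p = 0.0120). After 24 h the rises included the liver-expressed genes Uox (4.14 ± 0.47), Dpys, Upp2, Dpyd and Upb1, on the arrays where the hepatocyte median was 3.85 and 4.22, and 8 of 10 hepatocyte genes were called higher. After 48 h all 7 macrophage genes were called higher, with medians of 2.35 and 2.00. The part of these cell types in the changes was not tested.

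**Figure D5:**
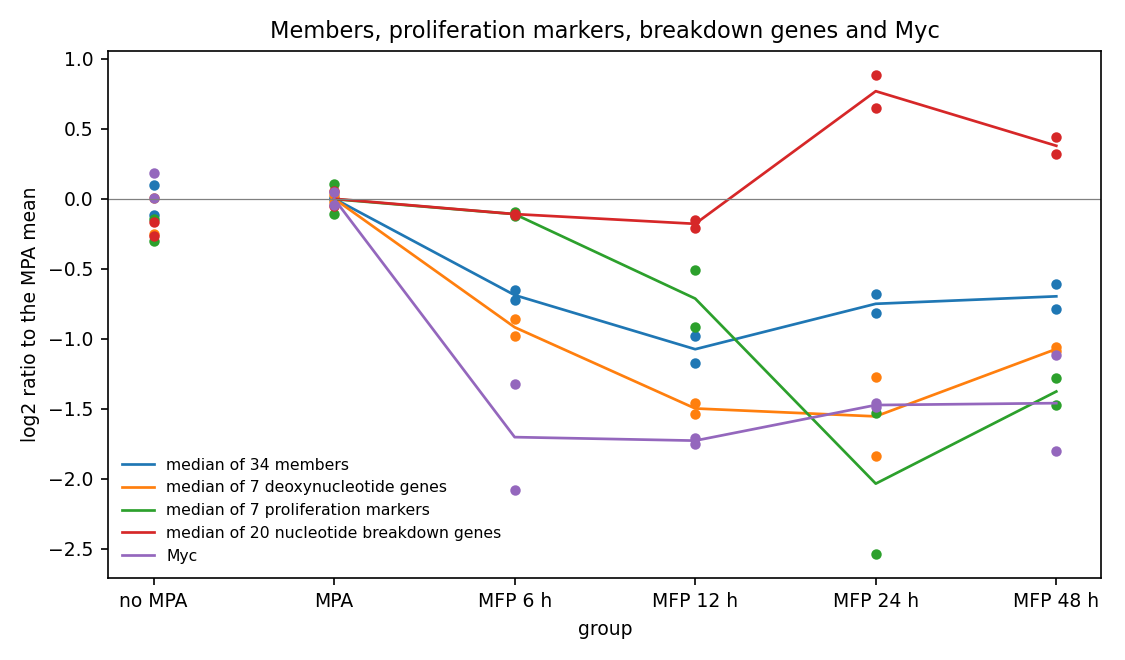
Median expression relative to the MPA average on the log2 scale (y axis) over the members, the deoxynucleotide genes, the proliferation genes and the breakdown genes, with the value of Myc, on each array by group (x axis); lines join the means of MPA and the MFP times. The member median is below 0 from 6 h on, while the proliferation median lies near 0 after 6 h and at -2.54 and -1.53 after 24 h.

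Myc, a factor that activates many biosynthesis genes, was at 0.05 and -0.05 in MPA, 0.19 and 0.01 in no MPA, -1.32 and -2.08 after 6 h, -1.75 and -1.71 after 12 h, -1.46 and -1.49 after 24 h and -1.80 and -1.12 after 48 h. It fell at all 4 times, by 1.70 ± 0.29 after 6 h (adjusted p = 0.0283) and 1.46 ± 0.29 after 48 h (adjusted p = 0.0119). E2f3 fell after 12 h, 24 h and 48 h (-1.17 ± 0.29, -1.26 ± 0.29 and -1.16 ± 0.29), and the other 5 of 7 regulators measured, including Atf4, were not called at any MFP time against MPA. Of 7 proliferation genes 0 fell after 6 h (limma, with 0 at an unadjusted p under 0.05), 1 after 12 h, 7 after 24 h and 4 after 48 h. Of all genes 0.940%, 2.62%, 4.20% and 6.02% were called lower at these times. The proliferation median by array was -0.10 and -0.12 after 6 h, -0.51 and -0.92 after 12 h, -2.54 and -1.53 after 24 h and -1.28 and -1.47 after 48 h, while the member median was -0.73 and -0.65, -0.98 and -1.17, -0.82 and -0.68, and -0.79 and -0.61.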

How the data were processed

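Whole-tumour RNA of 12 arrays in 6 groups, taken from the source names, was analysed. The authors' deposited values are log2 ratios, made with GCRMA per the submitters' processing notes (version not given in the sources used here). As reference serves the MPA average: for 45099 of 45101 probe sets the mean of both MPA arrays, taken back to the linear scale, lies within 0.0001 of 1. Signal over background is therefore unknown. Of the probe sets 34945 have 1 symbol and 932 several; the former gave 18193 genes, each represented by its probe set with the largest SD over the 12 arrays, which favours larger changes (9010 genes have several). No low-value filter or further scaling was used.

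The tests were run in limma 3.58.1 (R 4.3.3), as 1 model of 6 group means over all arrays (6 residual and 4.21 prior degrees of freedom), contrasts between groups, with Benjamini-Hochberg adjusted p under 0.05 over all genes as the threshold. The trend is the slope on log2 hours in the 8 MFP arrays. The 7 planned comparisons were joined by 2 chosen after seeing the data. Probe sets were also fitted singly. The code was tested on simulated data. Python 3.11.15 and matplotlib 3.10.9 searched promoters and drew the figures. The number of arrays limits the precision.

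Members and lists were chosen with earlier results of these data known. Named genes were, in each comparison and branch, up to 3 called members by smallest p in each direction or the member with the smallest p, with Rrm2, Tyms, Cad, Mthfd2 and Phgdh throughout; others are named for completeness. Replicate arrays differed by an SD of 0.43 to 0.63 over genes, and none were identical. Alternatives were the choice of probe set (largest SD around group means, or mean of all), median centring, quantile normalization, array weights, robust eBayes, a fit on the 2 groups alone, and leaving out each array.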

Additional observations from a re-analysis of the deposited data

Results flagged for a closer look

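The results below were singled out because the difference between MFP times was itself called by limma. After quantile normalization no member was called higher from 12 h to 48 h, so those calls depend on the processing. From 12 h to 48 h Rrm2 rose by 1.74, Tk1 by 1.18, Nme1 by 1.05, Pfas by 1.03, Dhodh by 1.02 and Ctps by 0.74 on the log2 scale. Over the MFP course Ctps had a slope of 0.37 per doubling of time and Shmt2 one of -0.40. The comparison of 12 h with 48 h was chosen after the values had been seen, and 12 h is the time at which most members were lowest. That choice itself favours a rise. On the same arrays the macrophage median went from 0.16 and 0.17 at 12 h to 2.35 and 2.00 at 48 h, and the exocrine pancreas median from 0.30 and 1.08 to 4.84 and 5.66. Their part in these results was not tested. Groups of 2 arrays are too small to single out an array within a group.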

How the results depend on the processing

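No called difference that the text names changed direction under the alternatives run for it. Settings other than leaving out an array kept 216 calls and ended 111, and leaving out single arrays ended calls as well. Members called lower at 6 h, 12 h, 24 h and 48 h against MPA, at 48 h against no MPA, and higher from 12 h to 48 h numbered 3, 14, 10, 8, 9 and 6. With the probe set of largest SD around the group means they numbered 0, 9, 5, 5 and, from 12 h to 48 h, 0, and no slope was called lower. With quantile normalization, which gives the MPA ratios the spread of the other arrays, they numbered 1, 3, 0, 0, 1 and 0, and 2 slopes were called higher. With the 2 groups fitted alone, on fewer arrays, they numbered 0, 0, 0, 0 and, against no MPA, 4. The mean of all probe sets gave 7 at 6 h and 2 slopes called higher, and array weights gave 6 at 24 h. Leaving out 1 array gave 0 to 5, 5 to 16, 6 to 10, 2 to 9, 1 to 10 and 0 to 8, with 0 to 1 called higher at 24 h and at 48 h and 0 to 1 slopes called lower. Scaling moved the median of all genes by less than 0.1.

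Values that changed sign belonged to genes not called in the comparison concerned, some of which were called in others. With the mean of probe sets Phgdh was at -0.16 at 6 h, -0.63 at 24 h and -0.35 at 48 h against MPA, at -0.46 at 48 h against no MPA and had a slope of -0.0047; Tyms was at 0.15 in no MPA and had a slope of 0.0081; Mthfd2 and Rrm2 had slopes of 0.049 and -0.029. The Rrm2 slope was -0.021 with the SD around group means and -0.044 with array weights, and the Mthfd2 slope was 0.0068 after centring and 0.044 after quantile normalization. With 1 array left out, ranges that crossed 0 were, against MPA, -0.66 to 0.19 for Tyms and -0.00048 to 0.097 for Slc29a1 at 6 h, -0.0079 to 3.51 for Phgdh at 24 h, and -0.60 to 0.12 for Rrm2 and -0.49 to 0.36 for Tyms in no MPA. They were -0.12 to 0.42 for Hprt from 6 h to 12 h, and -0.22 to 0.57 for Tyms and -0.16 to 0.59 for Mthfd2 from 12 h to 48 h. Slopes ranged from -0.13 to 0.37 for Cad, -0.20 to 0.24 for Rrm2, -0.098 to 0.077 for Mthfd2 and -0.076 to 0.041 for Slc29a1. The cause of these changes and of the changed counts was not tested.
No paired analysis was possible because the labels carry no replicate numbers. Depth cannot be read from ratios, so whether a gene with a small difference was near background is unknown.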

Other observations

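Probe sets that the annotation gives to a member together with another gene were left out above. One shared by Phgdh and Gm8096 was at -0.37 and 0.29 in MPA, -0.51 and -1.31 in no MPA and between -1.88 and -1.35 on the 8 MFP arrays. One shared by Phgdh and Gm6756 was at 0.03 and -0.03 in MPA, -2.11 and -0.30 in no MPA and between -2.22 and -0.10 with MFP. The probe set of Prps1 and Prps1l3 was at 0.13 and -0.14 in MPA and between -1.32 and -0.52 with MFP, whereas the one of Prps1 alone lay between -0.37 and 0.64 there. The probe set of Tyms and Tyms-ps was at -0.10 and 0.09 in MPA, -0.78 and -1.63 at 12 h and -0.74 and -0.43 at 24 h. These values were not tested and cannot be given to 1 gene.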
